A study of Mus musculus with 12 samples.

Results

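The 10 genes described here act on how much glucose enters a cell, how fast it is broken down and whether the pyruvate made from it is oxidized in the mitochondria: the glucose carriers Slc2a1 and Slc2a3, the PFKFB enzymes Pfkfb2, Pfkfb3 and Pfkfb4, the pyruvate dehydrogenase kinases Pdk1, Pdk2, Pdk3 and Pdk4, and the pyruvate dehydrogenase phosphatase subunit Pdp1. They were taken by gene symbol from a table of 56350 genes, in which each of the 10 had 1 row. RNAseq was done on 12 libraries of MPC2, a conditionally immortalized mouse mesenchymal line that is a single clone, with 3 libraries in each of 4 conditions. MSCs were undifferentiated cells grown at 33 °C. Osteocytes came from the same clone after 3 weeks of differentiation at 37 °C, with beta-glycerophosphate and ascorbic acid in the media, so that temperature, media and time in culture changed together with differentiation and cannot be told apart from it. Each cell type was given vehicle (DMSO) or 50 µmol/L FG-4592 (Roxadustat) for 48 hours, and no genotype differed between the conditions. FG-4592 inhibits the prolyl hydroxylases that mark hypoxia-inducible factors (HIF) for breakdown, and it was used to mimic hypoxia. The comparisons ask how the paralogs of each enzyme family differed in their response, and whether the response differed between MSCs and osteocytes.

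Glucose enters most cells by facilitated diffusion through carriers of the SLC2 family, and is then trapped by hexokinase. PFKFB enzymes are bifunctional: they make and break down the sugar bisphosphate that activates phosphofructokinase, and the paralogs differ in the balance of the kinase and phosphatase activities, PFKFB3 being the one that strongly favors the kinase. PDKs phosphorylate and shut off the pyruvate dehydrogenase complex, which keeps pyruvate in the cytosol for lactate dehydrogenase, whereas PDP1 removes the phosphate and turns the complex on again. Slc2a1 and Pdk1 are textbook targets of HIF, and Pdk4 is best known as a gene of fasting and of fatty acid use. In bone, osteoblast lineage cells are known for a high rate of glucose use and lactate output. Messenger RNA says nothing directly of enzyme activity or flux, and neither was measured in these files.

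Total counts ranged from 52829185 to 68108470 per library, and a count of 0 allows up to 3 counts, or between 0.0447 and 0.0545 CPM (the counts scaled to a common, TMM-normalized library size), which covers counting error only. The labels do not say whether replicates were separate cultures, so that the p-values measure the spread between these libraries, which may be technical. Of osteocyte markers, Phex was present at a mean of 57.6 CPM and Dmp1 at 11.2 CPM in vehicle-treated osteocytes, against 0.977 and 1.19 CPM in vehicle-treated MSCs, while Alpl (61.0 against 76.6 CPM) and Ibsp (35.6 against 59.6 CPM) were lower in these osteocytes. Sost had no counts in any library, and Mepe had none in any osteocyte library. Pdpn had at most 1 count in a library, but it has 2 rows in the table, the second on an alternate scaffold, and a read that matches both copies may have been counted for neither, so that its absence is uncertain. The summed level of 6 adipocyte markers was between 231 and 251 CPM in MSCs with vehicle and between 145 and 157 CPM in those with FG-4592, against 1937 to 2552 CPM in vehicle-treated and 2178 to 2585 CPM in FG-4592-treated osteocytes. The summed level of 5 proliferation markers was lower with FG-4592, from 800 to 819 CPM down to 546 to 635 CPM in MSCs and from 427 to 515 CPM down to 186 to 262 CPM in osteocytes. The summed level of 11 osteoblast and osteocyte markers was between 327 and 340 CPM in MSCs with vehicle and between 177 and 178 CPM with FG-4592, and in osteocytes between 450 and 464 CPM and between 245 and 273 CPM. The summed level of 8 mesenchymal stromal markers was higher with FG-4592, from 5863 to 5997 CPM up to 6794 to 7134 CPM in MSCs and from 3682 to 3789 CPM up to 5153 to 5753 CPM in osteocytes, but this sum is mostly Vim, and its members did not move together. Vim and Ly6a rose with FG-4592 in both cell types (Ly6a from a mean of 216 to 396 CPM in MSCs and from 55.8 to 320 CPM in osteocytes), Pdgfra and Pdgfrb fell in both, and Nt5e fell in MSCs and rose in osteocytes. The mitochondrial share of counts was 3.30% to 3.74% in vehicle-treated and 2.15% to 2.18% in FG-4592-treated osteocytes, and 2.56% to 2.84% and 2.30% to 2.50% in the MSCs, so that it was lower with FG-4592 in both cell types without overlap. The part of these shifts in the results that follow was not tested, and in bulk RNA fewer cells of a type and less RNA per cell cannot be told apart.

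Starts of 8 of the 10 genes were found in the RefSeq promoter table (GRCm38.p6), and Slc2a3 and Pdp1 were not matched. Windows of 4 genes are shown, those with more than a 2-fold change with FG-4592 in osteocytes. Each is written 5′ to 3′ on the strand of the gene, from 150 bases before the start up to the first annotated exon or, in Slc2a1, up to the end of a match that reaches into it. Capitals mark ACGTG or GCGTG on either strand (CACGT or CACGC as read here), the core letters of the element that HIF binds. In Pfkfb3 the capitals near the start are CACGTG, which counts as 2 overlapping matches and which is also the letters of an E-box.
Slc2a1: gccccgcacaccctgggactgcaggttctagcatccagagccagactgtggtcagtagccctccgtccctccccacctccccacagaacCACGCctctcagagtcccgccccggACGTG
Pfkfb3: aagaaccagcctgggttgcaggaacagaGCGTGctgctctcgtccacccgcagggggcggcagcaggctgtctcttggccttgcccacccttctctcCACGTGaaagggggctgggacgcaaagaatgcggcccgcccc
Pdk1: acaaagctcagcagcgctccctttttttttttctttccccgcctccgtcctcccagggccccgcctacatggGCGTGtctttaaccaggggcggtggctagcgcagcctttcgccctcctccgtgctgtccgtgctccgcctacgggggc
Pdk4: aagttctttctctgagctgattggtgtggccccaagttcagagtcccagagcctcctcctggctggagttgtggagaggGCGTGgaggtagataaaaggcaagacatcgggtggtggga
The stretches lie at chr4:119108595-119108713 (+ strand) for Slc2a1, chr2:11502102-11502240 (- strand) for the inner start of Pfkfb3, chr2:71873074-71873223 (+ strand) for Pdk1 and chr6:5496310-5496428 (- strand) for Pdk4. Counted from the start, the first base of a match lay at -61 and -36 in Slc2a1, at -122, -53 and -52 in Pfkfb3, at -78 in Pdk1 and at -71 in Pdk4. The outer start of Pfkfb3, with 1 match at -60, is not shown, because annotated exon bases reach into the stretch before it. The inner start of Pdk1 is not shown because it had no match. Of the 13 windows of 250 bases before a start of these genes, 11 held the letters, and each of the 8 genes had them before at least 1 start, against 38.6% of the 32851 windows in the table and 41.5% of its genes. The windows without them were the inner start of Pdk1 and 1 of the 2 starts of Pdk2. A match is a description of the letters and not a site, and genes that rose and genes that fell with FG-4592 both held one.

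Slc2a1, the carrier of basal glucose uptake (GLUT1, chr4:119108711-119137983, + strand), rose more than 10-fold with FG-4592 in both cell types. Its level was 23.5, 22.7 and 22.0 CPM in the 3 vehicle-treated MSC libraries and 238, 235 and 229 CPM in the FG-4592-treated ones. In osteocytes it was 15.3, 13.1 and 15.8 CPM with vehicle and 165, 170 and 165 CPM with FG-4592. The treated libraries stood far above the vehicle libraries with no overlap, and the osteocyte libraries stood below the MSC libraries of the same treatment. In edgeR's quasi-likelihood test the log2 fold change was 3.36 ± 0.058 (SE, FDR 7.59e-16) in MSCs and 3.50 ± 0.060 (FDR 5.19e-16) in osteocytes, or 10.3-fold and 11.3-fold. These responses were not shown to differ: osteocyte minus MSC came to 0.13 on the log2 scale, with a 95% interval from -0.045 to 0.31 (FDR 0.283). Slc2a1 was 0.62 lower in osteocytes than in MSCs on the log2 scale with vehicle (FDR 4.07e-07) and 0.49 lower with FG-4592 (FDR 1.56e-06).

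Slc2a3, the high-affinity carrier of neurons (GLUT3, chr6:122727809-122801640, - strand), was close to absent in every condition. Its counts were 7, 3 and 19 in vehicle-treated MSCs, 8, 3 and 1 in FG-4592-treated MSCs, 0, 7 and 0 in vehicle-treated osteocytes and 10, 18 and 7 in FG-4592-treated osteocytes. Only 2 libraries had more than 10 counts, so that the gene did not enter the fit, and no fold is given. The 2 libraries with no counts allow up to 0.0452 and 0.0488 CPM. Transcripts of Slc2a3 also share a stretch of 178 bases at 97.2% identity with Snf8. Per length, as CPM per kilobase of exon (RPKM), Slc2a1 made up 99.66% of the sum of both carriers in vehicle-treated MSCs and at least that share in the mean of each other condition.

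**Figure D1:**
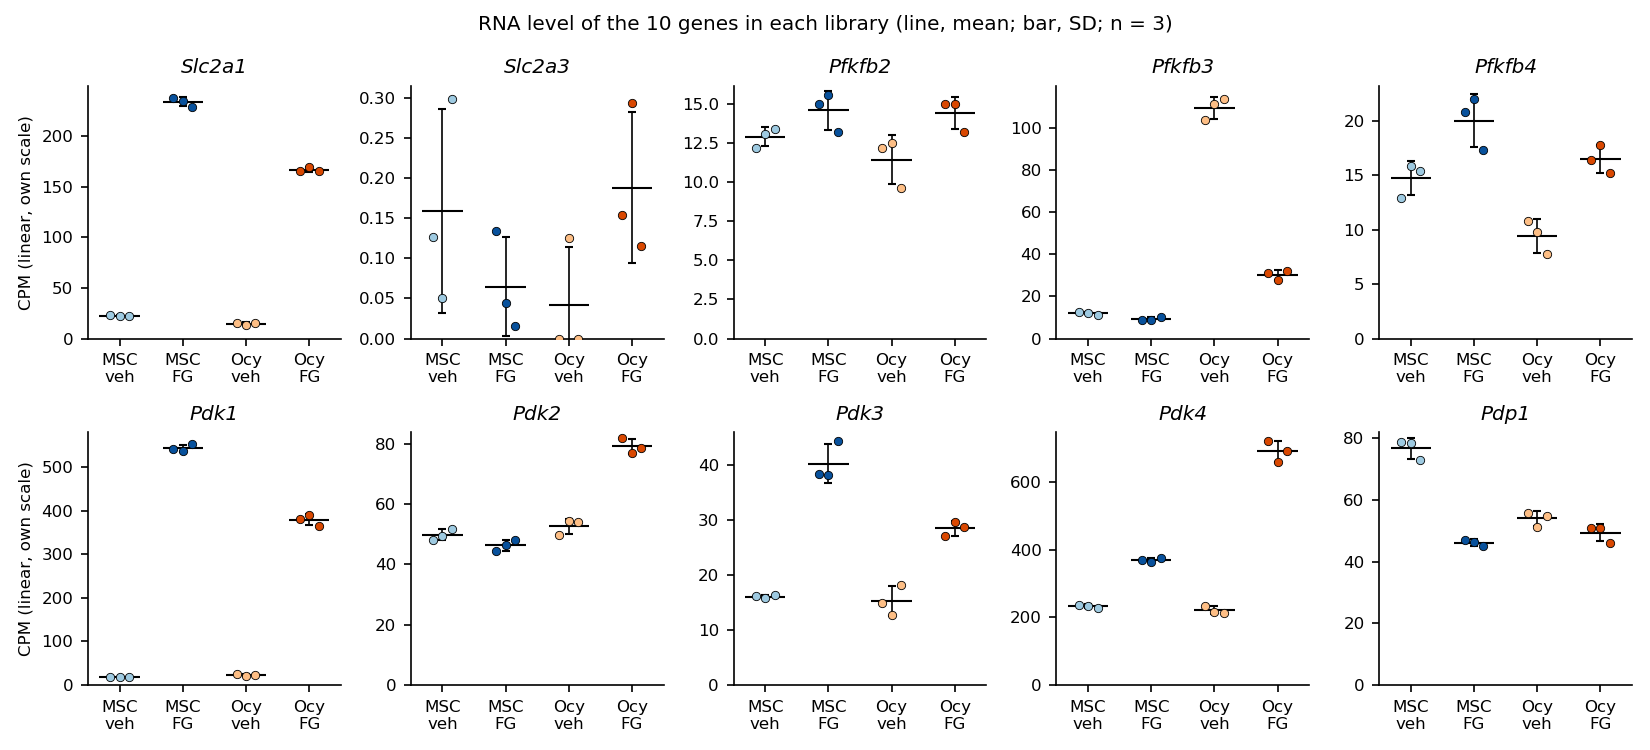
Level of each gene in the 12 libraries, in CPM on a linear axis that starts at 0 and has its own scale for each gene. Points are libraries, lines are group means and bars are SD (n = 3). Slc2a1 and Pdk1 are high in both FG-4592 groups, Pfkfb3 is high in vehicle-treated osteocytes at 109.6 CPM, and Slc2a3 stays under 0.3 CPM throughout.

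Among the PFKFB enzymes the paralogs moved in opposite directions. Pfkfb3 (chr2:11471433-11554077, - strand), the paralog that favors the kinase, was higher in osteocytes than in MSCs, and it fell with FG-4592. It was at 12.7, 12.3 and 11.4 CPM in vehicle-treated MSCs and at 8.63, 8.77 and 10.4 CPM in FG-4592-treated MSCs. In osteocytes it was at 104, 111 and 114 CPM with vehicle and at 31.0, 27.6 and 31.9 CPM with FG-4592. Vehicle-treated osteocytes were therefore far above all other libraries, and treated osteocytes lay between them and the MSCs. The fall in osteocytes was 3.63-fold, or -1.86 ± 0.075 on the log2 scale (edgeR, FDR 1.18e-11), while that in MSCs was -0.39 ± 0.084 (FDR 0.00147) and did not reach a 2-fold change. The difference between both responses was itself past both cutoffs, at -1.47 (95% interval -1.71 to -1.23, FDR 1.46e-07). Pfkfb3 was 9.03-fold higher in osteocytes than in MSCs with vehicle (log2 3.18 ± 0.078, FDR 2.92e-14) and 3.25-fold higher with FG-4592 (log2 1.70 ± 0.081, FDR 3.92e-11). The adipocyte markers given above were also higher in osteocytes than in MSCs, with Adipoq at a mean of 1470 against 7.77 CPM under vehicle, and their part in the level of Pfkfb3 was not tested. Between the osteocyte groups with and without FG-4592, where Pfkfb3 fell, their summed levels overlapped, but the sum is mostly Adipoq (1372 CPM with FG-4592), and Fabp4 was higher with FG-4592, at 238 against 104 CPM with no overlap, as was Cidec at 63.1 against 40.9 CPM. The part of these markers in the fall was not tested.

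Pfkfb4 (chr9:108991778-109032228, + strand) is a further bifunctional paralog and a known hypoxia-inducible gene. It was at 13.0, 15.9 and 15.4 CPM in vehicle-treated and 20.8, 22.0 and 17.3 CPM in FG-4592-treated MSCs. The osteocytes were at 10.8, 9.78 and 7.74 CPM with vehicle and 16.4, 17.8 and 15.2 CPM with FG-4592. In each cell type all treated libraries lay above all vehicle libraries, but the gaps were small. The rise was 0.44 ± 0.12 on the log2 scale in MSCs (edgeR, FDR 0.00918) and 0.81 ± 0.13 in osteocytes (FDR 6.51e-05), neither of which reached a 2-fold change, and without FG-4592-treated MSC replicate 2 the first of them gave 0.37 with an FDR of 0.0504. The responses were not shown to differ (0.36, 95% interval -0.0097 to 0.74, FDR 0.153). Opposite to Pfkfb3, Pfkfb4 was lower in osteocytes than in MSCs with vehicle (log2 -0.64 ± 0.13, FDR 4.55e-04), with no overlap, and it gave -0.28 with FG-4592 (FDR 0.0628), where the groups overlapped.

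Pfkfb2 (chr1:130689182-130729253, - strand), known as the cardiac form, was the steadiest of the 3, between 9.63 and 15.6 CPM in all 12 libraries. With FG-4592 it gave 0.18 ± 0.11 in MSCs (FDR 0.205), where the groups overlapped, and 0.33 ± 0.11 in osteocytes (FDR 0.0178). The latter passed the FDR cutoff by little. Its FDR was 0.0901 without vehicle-treated osteocyte replicate 3, 0.0641 and 0.0566 without FG-4592-treated osteocyte replicates 1 and 2, and 0.0884 with scaling by library size alone. Of its 7254 exonic bases, 17.4% are shared with Gm29427 on the same strand, which had at most 6 counts in a library, and 2.12% with Yod1 on the opposite strand, which had at most 1287. Reads in the shared bases were counted for both genes.

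Per length, the make-up of these 3 PFKFB genes differed with cell type and with treatment. The remaining paralog, Pfkfb1, at means between 0.571 and 0.905 RPKM, is not in these sums. Pfkfb4 was the most abundant paralog in MSCs, at a mean of 47.1% of the summed RPKM of the 3 with vehicle and 55.8% with FG-4592. In osteocytes Pfkfb3 held 80.5% ± 3.0 (SD, n = 3) of the sum with vehicle and 42.7% ± 3.5 with FG-4592, while Pfkfb4 went from 10.8% to 36.1% and Pfkfb2 from 8.76% to 21.2%. Their summed level was 18.0 RPKM in osteocytes with vehicle and 9.36 RPKM with FG-4592, and 6.41 and 7.35 RPKM in the MSCs. The log2 ratio of Pfkfb3 to Pfkfb4 within a library fell by 0.83 in MSCs and by 2.68 in osteocytes with FG-4592. Averaged over both cell types this was past the exact permutation test, in which treatment labels were rearranged within each cell type (two-sided p = 0.005, the smallest that the 400 rearrangements allow, and 0.0069 after adjustment over the 11 gene pairs tested, of which 10 pair paralogs and 1 sets Pdk1 against Pdp1).

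**Figure D2:**
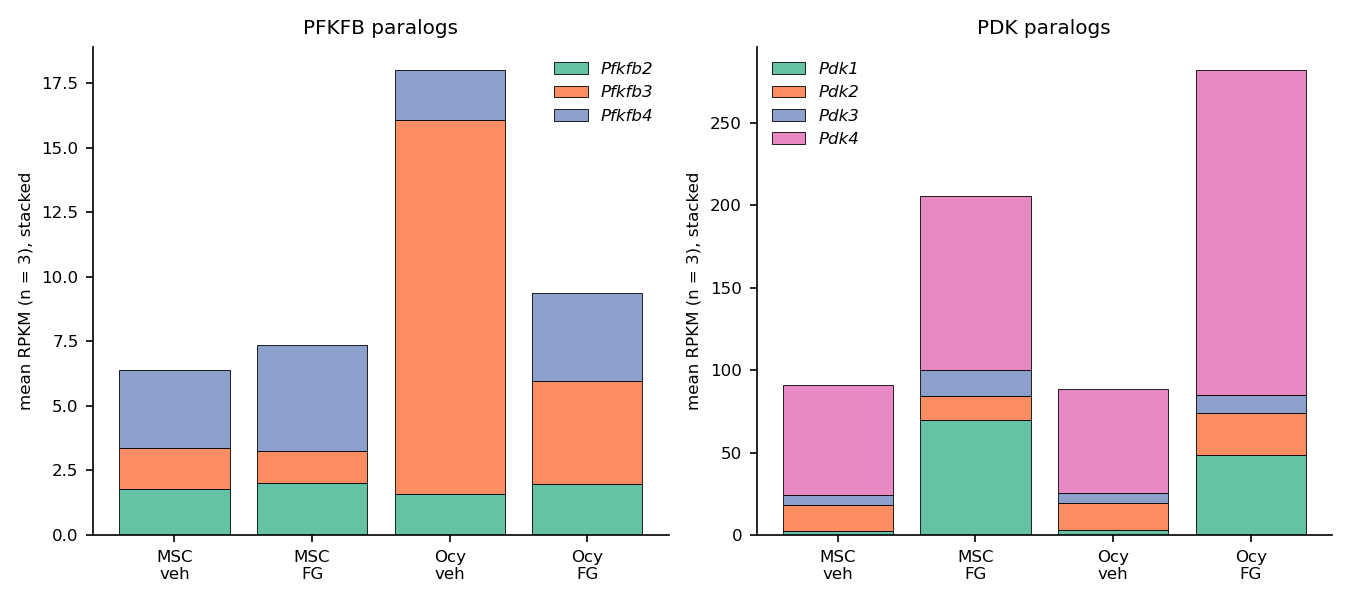
Mean level of the PFKFB paralogs (left) and the PDK paralogs (right) in each condition, stacked, in RPKM on a linear axis (n = 3). Pfkfb3 makes up most of the tall bar of vehicle-treated osteocytes, 80.5% of the sum, and Pdk4 is the largest segment of all 4 PDK bars.

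Pdk1 (chr2:71873224-71903858, + strand) had the largest rise of the 9 genes tested. Its level was 17.9, 19.4 and 18.6 CPM in vehicle-treated and 541, 536 and 553 CPM in FG-4592-treated MSCs. In osteocytes it was 26.3, 21.8 and 22.4 CPM with vehicle and 381, 391 and 366 CPM with FG-4592. The groups stood apart in both cell types, and the order of the cell types turned around: osteocytes were slightly higher with vehicle and lower with FG-4592. The rise was 29.1-fold in MSCs (log2 4.87 ± 0.063, FDR 6.89e-17) and 16.1-fold in osteocytes (log2 4.01 ± 0.062, FDR 2.65e-16). The response was smaller in osteocytes by 0.85 on the log2 scale (95% interval of osteocyte minus MSC -1.04 to -0.67, FDR 3.81e-06), in edgeR's quasi-likelihood test, and this difference did not reach the fold cutoff.

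Pdk4 (chr6:5483351-5496309, - strand), the paralog tied to fatty acid use, differed the other way. It was at 238, 234 and 227 CPM in vehicle-treated and 370, 363 and 375 CPM in FG-4592-treated MSCs. It was at 234, 217 and 214 CPM in vehicle-treated and 721, 660 and 691 CPM in FG-4592-treated osteocytes. Vehicle-treated MSCs and osteocytes overlapped, while treated osteocytes lay above all other libraries. The rise was 1.59-fold in MSCs (log2 0.66 ± 0.048, FDR 1.68e-08) and 3.12-fold in osteocytes (log2 1.64 ± 0.048, FDR 1.98e-13). The response was larger in osteocytes by 0.97 on the log2 scale (95% interval 0.83 to 1.12, FDR 6.35e-08), just short of the fold cutoff of 1, and without FG-4592-treated osteocyte replicate 2 it was 1.001 and past it. A stretch of 101 bases at 98.0% identity is shared with transcripts of Cflar.

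Pdk3 (chrX:93764607-93832201, - strand), a paralog of high kinase activity, was at 16.1, 15.8 and 16.3 CPM in vehicle-treated and 38.4, 38.2 and 44.4 CPM in FG-4592-treated MSCs. Osteocytes had 14.9, 12.7 and 18.2 CPM with vehicle and 27.1, 29.7 and 28.7 CPM with FG-4592. The treated libraries lay above the vehicle libraries in each cell type, with no overlap. The rise was 2.51-fold in MSCs (log2 1.33 ± 0.10, FDR 4.00e-08) and 1.86-fold in osteocytes (log2 0.90 ± 0.10, FDR 2.79e-06). The latter was under the fold cutoff with all libraries and past it, at 1.04, without vehicle-treated osteocyte replicate 3. The difference between the responses, -0.43 (FDR 0.0436), was under the fold cutoff, and its FDR rose above 0.05 when any of 7 libraries was left out, to between 0.0503 and 0.111 (vehicle-treated MSC replicate 2, FG-4592-treated MSC replicates 1 and 3, vehicle-treated osteocyte replicate 3 and FG-4592-treated osteocyte replicates 1, 2 and 3). Its size went to -0.28 without vehicle-treated osteocyte replicate 3 and to -0.35 without FG-4592-treated MSC replicate 3, and lay between -0.40 and -0.46 without the other 5.

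Pdk2 (chr11:95026258-95041354, - strand), the most widely expressed paralog, was at 48.0, 49.6 and 51.7 CPM in vehicle-treated and 44.3, 46.5 and 48.0 CPM in FG-4592-treated MSCs. Its level in osteocytes was 49.8, 54.2 and 54.0 CPM with vehicle and 81.8, 77.0 and 78.6 CPM with FG-4592. The FG-4592-treated osteocytes lay far above all other libraries, and the FG-4592-treated MSCs lay below the vehicle-treated MSCs and all osteocytes by a narrow gap. The log2 fold change was -0.11 ± 0.055 in MSCs (FDR 0.151, and -0.19 with an FDR of 0.0141 under scaling by library size alone) and 0.59 ± 0.055 in osteocytes (FDR 2.29e-07). The responses differed by 0.69 (95% interval 0.53 to 0.86, FDR 8.58e-06).

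Of the 4 kinases, 3 rose with FG-4592 in MSCs and all 4 in osteocytes by FDR alone (which 38.1% and 43.8% of all genes passed in either direction), and the summed PDK level per length went from 90.8 to 205 RPKM in MSCs and from 88.8 to 282 RPKM in osteocytes. The share of Pdk1 in this sum went from 2.64% ± 0.11 to 34.0% ± 0.22 (SD, n = 3) in MSCs, and from 3.40% ± 0.25 to 17.3% ± 0.87 in osteocytes. By CPM, which is not divided by length, Pdk1 was above Pdk4 in FG-4592-treated MSCs, at a mean of 543 against 369 CPM. Per length, Pdk4 remained the paralog with the highest level in every condition. Its share was 73.1% with vehicle and 51.2% with FG-4592 in MSCs, and 71.1% and 69.9% in osteocytes, where the ranges overlapped. Pdk2 went from 17.3% to 7.12% and from 18.8% to 8.88%, although its own level rose in osteocytes. Relative to each of the other 3 kinases, the log2 ratio of Pdk1 was higher with FG-4592 by 2.38 or more in each cell type. The test is of the mean change over both cell types, which was 4.20 against Pdk2, 3.32 against Pdk3 and 3.29 against Pdk4 (p = 0.005, adjusted 0.0069 for each pair, exact permutation test). The ratio of Pdk3 to Pdk4 moved in opposite directions, by 0.66 in MSCs and -0.73 in osteocytes, with no overlap between vehicle and FG-4592 in either, so that its mean over both cell types was near 0 (-0.034, p = 0.90, exact permutation test).

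Pdp1 (chr4:11958184-11966452, - strand), the catalytic phosphatase subunit that opposes these kinases, was at 78.9, 78.4 and 72.8 CPM in vehicle-treated and 47.2, 46.4 and 44.9 CPM in FG-4592-treated MSCs. In osteocytes it was at 55.9, 51.3 and 54.9 CPM with vehicle and 50.9, 51.0 and 46.2 CPM with FG-4592. Vehicle-treated MSCs stood above all other libraries, and the osteocyte groups came close to each other. Pdp1 fell by 0.73 on the log2 scale in MSCs (1.66-fold, SE 0.057, FDR 3.95e-08). In osteocytes the change was -0.13 (95% interval -0.25 to -0.0085, FDR 0.0793 in edgeR). There the FDR was under 0.05 with RLE factors (0.0475), in DESeq2 (0.0449), under scaling by library size alone (0.00264) and without vehicle-treated MSC replicates 1 (0.049) or 3 (0.0445) or vehicle-treated osteocyte replicate 2 (0.025). The responses differed by 0.60 (95% interval 0.43 to 0.77, FDR 5.43e-05).

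The summed PDK level per unit of Pdp1, both in RPKM, was 5.34 ± 0.19 in MSCs with vehicle and 20.1 ± 0.92 with FG-4592 (SD, n = 3). In osteocytes it was 7.41 ± 0.19 and 25.8 ± 1.6. The ranges of the 4 conditions did not overlap. With Pdp2, the other catalytic subunit, added to Pdp1, the means were 4.83 and 17.6 in MSCs and 6.09 and 23.7 in osteocytes. The log2 ratio of Pdk1 alone to Pdp1 was higher with FG-4592 by 5.60 in MSCs and 4.15 in osteocytes, and the mean change over both, 4.87, was the one tested (p = 0.005, adjusted 0.0069, exact permutation test).

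**Figure D3:**
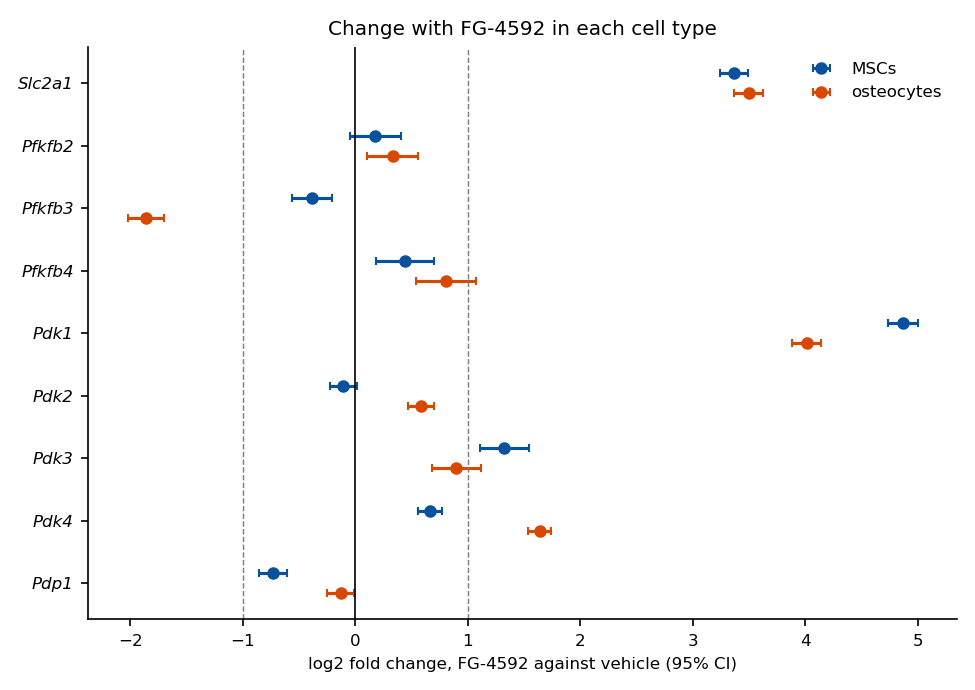
Log2 fold change with FG-4592 against vehicle for the 9 genes tested, in MSCs (blue) and osteocytes (orange), with 95% intervals from the edgeR fit. The dashed lines mark a 2-fold change. Slc2a1 and Pdk1 lie beyond 3 in both cell types, and Pfkfb3 lies at -1.86 in osteocytes and -0.39 in MSCs.

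Genes past both an FDR of 0.05 and a log2 fold change of 1 in size are referred to as called. With FG-4592, 3 of the 9 genes tested were called in MSCs (Slc2a1, Pdk1 and Pdk3, all higher) where 9.29% of all 16484 genes were, 4.12% higher and 5.17% lower. In osteocytes 4 were called (Slc2a1, Pdk1 and Pdk4 higher and Pfkfb3 lower) against 10.5% of all genes, 6.25% higher and 4.26% lower. At an FDR under 0.05 alone, 7 passed in MSCs and 8 in osteocytes, against 38.1% and 43.8% of all genes. The median log2 fold change of the 9 was 0.44 in MSCs and 0.81 in osteocytes, and that of all genes tested -0.045 and 0.0015.

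Between the cell types, Pfkfb3 was the only one of the 9 genes called, with vehicle (15.9% of all genes) and with FG-4592 (18.3%). At an FDR under 0.05 alone, 5 of 9 differed with vehicle (51.0% of all genes) and 6 of 9 with FG-4592 (55.8%). Shares so close to those of all genes say nothing particular of the 9. Pfkfb3 was also the only one with a called difference between the responses, against 5.01% of all genes, and 6 of 9 had such a difference at an FDR under 0.05, against 24.3%. Of these 6, Pdk2, Pdk4 and Pdp1 had the higher log2 fold change in osteocytes, and Pfkfb3, Pdk1 and Pdk3 the higher one in MSCs. The comparisons share control libraries and are not independent of each other.

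Ordered by level per length, Pdk4 was first of the 10 in each condition, from a mean of 63.2 RPKM in vehicle-treated osteocytes to 197 RPKM in FG-4592-treated ones, and Slc2a3 was last. In vehicle-treated MSCs Pdp1 (17.0 RPKM) and Pdk2 (15.7 RPKM) followed with overlapping ranges, and Slc2a1 (6.49 RPKM) overlapped Pdk3 (6.28 RPKM). With FG-4592, Pdk1 and Slc2a1 moved to the places behind Pdk4 in both cell types, at 69.9 and 66.8 RPKM in MSCs, and at 48.7 and 47.6 RPKM with overlapping ranges in osteocytes. With vehicle, Pfkfb3 stood behind Pdk4 and Pdk2 in osteocytes, at 14.5 RPKM, but above only Slc2a3 in MSCs, at 1.61 RPKM.

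The steps on either side of these switches were read from lists of 58 other genes, of which 49 were tested, and 9 were called with FG-4592 in MSCs (7 higher and 2 lower) and 11 in osteocytes (9 higher and 2 lower), against 9.29% and 10.5% of all genes. The 9 that were higher in osteocytes include Slc16a3, whose call rests on near-floor counts, as given with its values. The lists below are short, and their counts are descriptions to be read against these shares. At the hexokinase step, 2 of 3 tested genes were called in both cell types. Hk2, the inducible hexokinase, went from a mean of 10.6 to 115 CPM in MSCs and from 35.5 to 121 CPM in osteocytes (log2 3.45 ± 0.09 and 1.77 ± 0.08), and Hk1 rose by 2.03 and 1.57. At the phosphofructokinase step, on which the PFKFB product acts, 2 of 5 were called in both: Pfkl, the liver-type subunit, rose by 3.74 and 3.66 and Pfkp, the platelet-type subunit, by 2.10 and 2.16. Pfkp shares 5.58% of its exonic bases with Pitrm1 on the opposite strand, which had at most 5270 counts in a library against at most 10974 for Pfkp.

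The arrestin Txnip, a brake on glucose uptake that promotes the removal of SLC2A1 from the cell surface, rose together with Slc2a1. Its mean was 206 CPM in vehicle-treated and 476 CPM in FG-4592-treated MSCs, and 97.2 and 1680 CPM in osteocytes. The log2 fold change was 1.21 ± 0.09 in MSCs (FDR 2.04e-08) and 4.11 ± 0.09 in osteocytes (FDR 1.44e-14), and the difference of 2.91 ± 0.12 was past both cutoffs (FDR 3.52e-10). It was the only gene called among the 4 tested of its list, in each cell type. Txnip shares 19.4% of its exonic bases with Gm15441 on the opposite strand, which had at most 68 counts.

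Downstream of the PDKs, no subunit of the pyruvate dehydrogenase complex was called. In osteocytes all 7 tested genes of this list passed an FDR of 0.05, with 6 lower and Pdpr higher, where 43.8% of all genes passed. The catalytic and structural subunits Pdha1, Pdhb, Dlat, Dld and Pdhx lay between -0.26 and -0.45, names given after the values were seen. In MSCs 2 of the 7 passed, Pdhx (-0.25) and Pdpr (0.28), a smaller share than the 38.1% of all genes. The one called was the phosphatase subunit Pdp2, which fell from a mean of 14.8 to 5.34 CPM in osteocytes (log2 -1.47 ± 0.14, FDR 2.56e-07). In MSCs Pdp2 gave -0.31 (FDR 0.084), and the responses differed by -1.16 (FDR 3.60e-04). The response of Pdp1 was therefore the larger in MSCs and that of Pdp2 the larger in osteocytes, while each had a log2 fold change below 0 in both.

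Of 7 genes for other fates of pyruvate, 3 were called in each cell type, against 9.29% of all genes in MSCs and 10.5% in osteocytes. Ldha, the lactate dehydrogenase subunit that is also a known HIF target, went from a mean of 318 to 3147 CPM in MSCs and from 341 to 2289 CPM in osteocytes (log2 3.31 ± 0.04 and 2.75 ± 0.04). Ldhb, the subunit that favors pyruvate, fell by 1.40 and 1.09. The lactate carrier Slc16a1 rose by 1.30 in MSCs, and by 0.93 and thus under the fold cutoff in osteocytes. The remaining call in osteocytes was Slc16a3, a lactate exporter, at 3, 2 and 0 counts with vehicle and 13, 16 and 11 with FG-4592. It passed the filter on low counts only through the group in which it was high, with at most 7 counts in any other library, so that its call supports nothing and no fold is given.

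**Figure D4:**
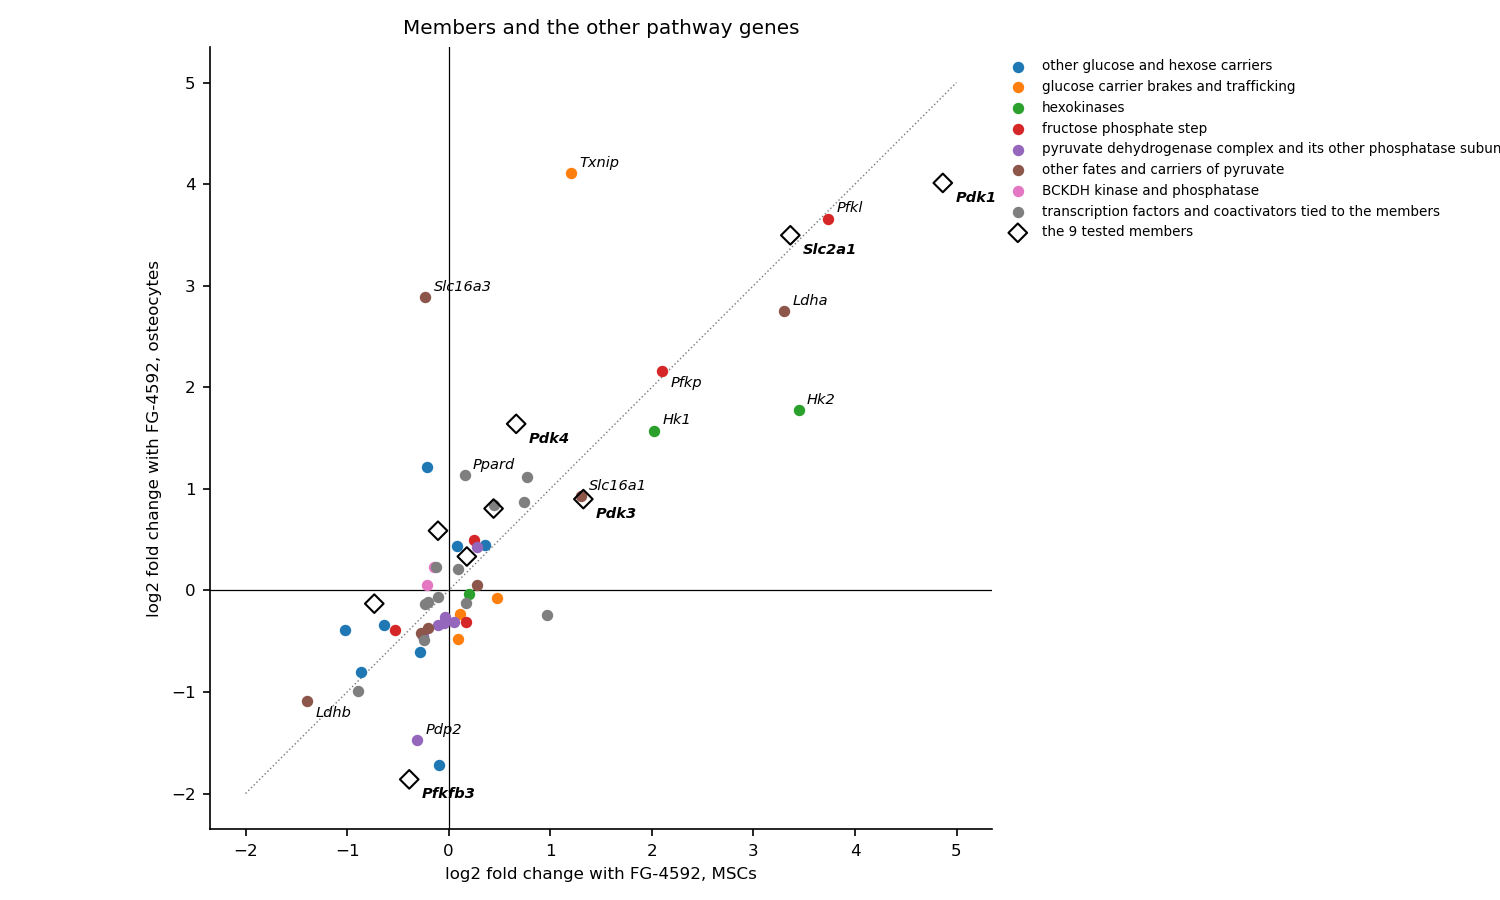
Log2 fold change with FG-4592 in MSCs (x) and in osteocytes (y) for the 9 members tested (open diamonds) and 49 other pathway genes (points, colored by list). The dotted line marks equal change. Txnip lies far above the line at 1.21 and 4.11, and Hk2 below it at 3.45 and 1.77.

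For each of the 9 tested genes, the gene with the most similar pattern was sought by Pearson's r of log2 CPM over the 12 libraries, among the 12153 genes that reached 100 counts on average in at least 1 condition. The points share cell type and treatment, so that r describes the 4 conditions more than the libraries. The nearest to Pdk1 was Ldha (r = 0.999), and to Slc2a1 it was Npepps (r = 0.999). Pfkfb3 was nearest to Gramd3 (r = 0.993), Pdk4 to Mturn (r = 0.995), Pdk2 to Wfs1 (r = 0.993) and Pdk3 to Rnf13 (r = 0.994). Pfkfb4 (Cbx2, r = 0.973), Pdp1 (Ces1g, r = 0.962) and Pfkfb2 (Fbxo42, r = 0.929) had looser matches. Within the 9, Slc2a1 and Pdk1 were nearest to each other (r = 0.983), while Pfkfb3 and Pdp1 had no close partner, with highest r of 0.308 (Pdk2) and -0.149 (Pfkfb3).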

How the data were processed

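Poly(A) RNA libraries (KAPA mRNA Hyper Prep) were sequenced as paired reads of 100 bases. Per the labels and the study's methods, the authors mapped them to mm10 with STAR 2.7.2a and counted them on Gencode M22 genes with featureCounts (Subread 1.6.2), leaving out mapping qualities below 10. A pair was counted for every gene that it overlapped, without strand, so that overlapping genes share reads. The authors deposited raw counts per gene, without normalization, and all 12 columns were used.

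From these counts, 16484 of 56350 genes (over 10 counts in 3 or more libraries) were fitted together by quasi-likelihood in edgeR 4.0.16 under R 4.3.3, after TMM scaling, and p-values were adjusted by the Benjamini-Hochberg method over the whole table. The method was tested on simulated data. Values after ± beside fold changes are SE from the fit. Paralog ratios (log2 ratio of the counts within a library, with 0.5 added to each) were tested by exact permutation. Exon overlaps (GenomicRanges 1.54.1), near-identical stretches of at least 100 bases at 97% identity (blastn 2.17.0, Gencode M21) and promoter letters (Python 3.11.15) were read from the annotation.

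The members and lists were chosen with earlier results of these data known. Named by rule were all 10 members, the other listed genes called with FG-4592 in either cell type, the most abundant gene of a list without one, and the nearest gene by r. Outside this rule, Pfkfb1, Ppm1k, the subunits of the pyruvate dehydrogenase complex with Pdpr, and some markers, hexose carriers and transcription factors were named for context. The alternatives were RLE factors, library size alone, no filter, filterByExpr, the likelihood ratio test, only the libraries compared, a replicate block, DESeq2 1.42.0, medians or other added counts for ratios, and each library left out.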

Additional observations from a re-analysis of the deposited data

Results flagged for a closer look

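Between the cell types, 6 of the 9 tested members had responses to FG-4592 that differed by edgeR's test of the difference itself (osteocyte minus MSC log2 fold change, FDR under 0.05, as did 24.3% of all genes). The difference was -1.47 for Pfkfb3, -0.85 for Pdk1 and -0.43 for Pdk3, whose FDR of 0.0436 did not hold without several libraries. It was 0.69 for Pdk2, 0.97 for Pdk4 and 0.60 for Pdp1.

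Among the other genes named, the same test gave 2.91 for Txnip, -1.67 for Hk2 and -1.16 for Pdp2, which were past the fold cutoff as well. Under the fold cutoff, it gave -0.45 for Hk1, -0.56 for Ldha, -0.37 for Slc16a1, 0.62 for Slc2a9 (FDR 0.0488), 0.38 for Bckdk, 0.98 for Ppard and 0.34 for Foxo3. Of the pyruvate dehydrogenase subunits it gave -0.28 for Pdha1, -0.37 for Pdhb, -0.23 for Dlat and -0.23 for Dld.

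The log2 ratio of Pdk3 to Pdk4 moved by 0.66 with FG-4592 in MSCs and by -0.73 in osteocytes, with every library of one cell type above and every library of the other below its vehicle libraries. The difference between these opposite shifts was not tested.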

How the results depend on the processing

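The counts of called members, 3 with FG-4592 in MSCs, 4 in osteocytes and 1 between the cell types under each treatment, kept within 1.5 times under each alternative run. The count with a called response difference was 1, and between 1 and 2 with a library left out (Pdk4 at 1.001 without FG-4592-treated osteocyte replicate 2). Of all recomputed values, 1158 kept their direction and their status as called or not called, although some of them crossed the FDR cutoff alone, as given here and beside the results, and 5 passed a cutoff not passed with all libraries and the settings as reported: Pdk3 in osteocytes (1.04 without vehicle replicate 3), Pdk4 as above, and Slc2a1 over Slc2a3, which at 2.48 had an adjusted p of 0.066 by the exact permutation test, at 2.95 with 2 added to each count, and at 2.85 and 2.84 without vehicle-treated osteocyte replicates 1 and 3. Sign changed 6 times, in values near 0: Pfkfb2 in osteocytes against MSCs under FG-4592 (-0.019) gave 0.0015, 0.030 and 0.040 without FG-4592-treated MSC replicates 1 and 2 and FG-4592-treated osteocyte replicate 3, Pdk3 under vehicle (-0.073) gave between -0.21 and 0.073 with an osteocyte or MSC library left out, and Pdk3 over Pdk4 (-0.034) gave 0.0079 with medians and between -0.089 and 0.045 with a library left out. The cause was not tested. The ratio of Slc2a1 to Slc2a3 rests on the 0 to 19 counts of Slc2a3 and on the count added to them. Its change with FG-4592 was 4.63 in MSCs and 0.33 in osteocytes, where no treated library lay above all vehicle libraries. That this ratio passed a cutoff in some runs therefore supports nothing.

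Scaling by library size alone moved the median of all genes by -0.086 in MSCs and -0.098 in osteocytes. By FDR alone, Pfkfb4 in osteocytes against MSCs under FG-4592 (-0.28, FDR 0.0628) went under 0.05 with RLE factors (0.0488), DESeq2 (0.0362), no filter (0.0224) and other settings, and Pdk2 under vehicle without osteocyte replicate 1 (0.0314). Replicates with the same number did not deviate together (r between -0.053 and 0.054), so that the numbers were not taken to pair the libraries, and with a replicate block the counts were 3, 4, 1, 1 and 1 and the count of ratios past the test 9, as without it. With 3 libraries per condition, the SE for Pfkfb2, Pfkfb4 and Pdk3 was between 0.10 and 0.13 in comparisons of 2 conditions and between 0.146 and 0.176 for the response difference, and Slc2a3 could not be fitted.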

Other observations

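Among 14 transcription factors and coactivators tied to the members, 13 were tested. With FG-4592 none was called in MSCs, against 9.29% of all genes, and 2 were called in osteocytes, against 10.5%. In a list this short, these counts say nothing particular of it. Ppard, a nuclear receptor of fatty acids known to act on Pdk4, went from a mean of 44.8 to 98.4 CPM in osteocytes (log2 1.14 ± 0.06, edgeR FDR 1.45e-10), against 42.6 and 47.6 CPM in MSCs (0.16, FDR 0.0412). Foxo3, a further factor known from the control of Pdk4, rose by 1.11 in osteocytes and by 0.77 in MSCs. Others in the list, not called, differed in direction in osteocytes with FG-4592. Foxo1 went from a mean of 50.2 to 89.7 CPM, Pparg from 122 to 113, Esrra from 14.4 to 13.7 and Ppara from 0.757 to 0.380 CPM. A link of any of these factors to the level of Pdk4 was not tested. Of the remaining hexose carriers, 8 of 10 were tested. With FG-4592 only Slc2a9, which carries urate, was called: it fell by 1.02 in MSCs, from 8.76 to 4.32 CPM, and gave -0.39 (FDR 0.0503) in osteocytes. Between the cell types, 4 of the 8 were called under each treatment, against 15.9% of all genes with vehicle and 18.3% with FG-4592. Slc2a10 was higher in osteocytes, at 12.9 against 5.05 CPM with vehicle. The others, Slc2a2, Slc2a4 and Slc2a6, were near the floor in 1 of the cell types, so that no fold is given.

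The kinase of the branched-chain ketoacid dehydrogenase, Bckdk, is a relative of the PDKs. It gave -0.15 in MSCs (FDR 0.097) and rose by 0.23 in osteocytes (FDR 0.011). Neither it nor the matching phosphatase Ppm1k was called.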
